A study of Mus musculus with 6 samples.

Results

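Purine nucleotide cycle and creatine kinase genes were examined in the gastrocnemius of mice with and without a C26 tumor. They were 10 genes chosen by name, and all 10 were among the 13363 genes of the deposited table, which was matched to symbols by Entrez gene ID. Adss1 is listed in the annotation used here under its older symbol Adssl1. C26 is a murine colon adenocarcinoma cell line whose growth in mice is followed by muscle wasting. The sequenced muscles came from 3 Balb/c mice carrying C26 tumors and 3 Balb/c control mice. The mice of the study were males bought at the age of 6 weeks and kept for 1 week, and the C26 mice then received 500000 cells under the skin of the right flank. Control mice carried no tumor, and no other agent, allele or genotype is named. The day on which the sequenced muscles were taken is not given in the sources used here.

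Muscle draws on several reactions that keep ATP up when demand is high. Creatine kinase moves phosphate from phosphocreatine to ADP, and adenylate kinase joins a pair of ADP into ATP and AMP. AMP deaminase turns that AMP into IMP, and adenylosuccinate synthetase and adenylosuccinate lyase rebuild AMP from IMP with nitrogen from aspartate, which closes the purine nucleotide cycle. AMP or IMP can instead lose phosphate to a nucleotidase and leave the cell as nucleosides and bases, which xanthine dehydrogenase oxidizes to uric acid.

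Values are given as FPKM, read numbers corrected for transcript length and library size, as the authors deposited them. Log2 fold changes compare C26 with control muscles on log2(TPM + 1), where TPM are the FPKM of a muscle rescaled to a fixed sum and corrected by TMM factors, and come with their standard error (SE). This scale understates the change of genes with low values. The adjusted p is that of limma with Benjamini-Hochberg adjustment over all 13363 genes, and a gene is said to have risen or fallen where it was under 0.05. Nothing in the labels ties the replicate numbers to separate experiments, so the tests measure the spread between these 6 muscles. Summed FPKM ranged from 626992 to 688300 per control muscle and from 531061 to 585169 per C26 muscle, and the depth behind a value is unknown.

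The 8 markers of skeletal muscle fibers were all listed, with a summed level of 180800 to 194200 TPM in controls against 92850 to 151600 TPM with C26 tumors. Of these markers, 2 fell (Pvalb and Mylpf) and 0 rose, against 14.5% and 19.4% of all genes. Myh4 (log2 fold change 0.23) and Myh1 (2.13) lay above 0 without passing, and the other markers lay below 0. In bulk muscle, fewer fibers, less RNA per fiber and a shift among the fiber genes cannot be told apart. The muscles of a group also differed among themselves. The 7 fat cell markers summed to 6185, 3478 and 777 TPM in control replicates 1, 2 and 3 and to 475 to 684 TPM in C26 muscles, and 6 of them fell.

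The AMP deaminase genes changed in opposite directions. Ampd1, the muscle isoform, and Ampd2, the isoform known best from liver, fell, while Ampd3, the isoform known from red cells, rose. Together with Ak1, which fell, these were the 4 of 10 genes that passed the test, 1 higher and 3 lower, against 19.4% of all genes higher and 14.5% lower. In either direction the background was 33.8%, and 4 of 10 is a share near it. A fold change above 4 in addition, the criterion of the study, was met by Ampd3 upward and by Ampd1 and Ak1 downward, against 1.77% of all genes upward, 1.73% downward and 3.49% in either direction. On the scaled TPM, 3 of the 10 genes were higher and 4 lower in every C26 muscle than in every control, against 27.0% and 26.5% of all genes. The median log2 fold change was -0.40 over the 10 genes and -0.05 over all genes.

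**Figure D1:**
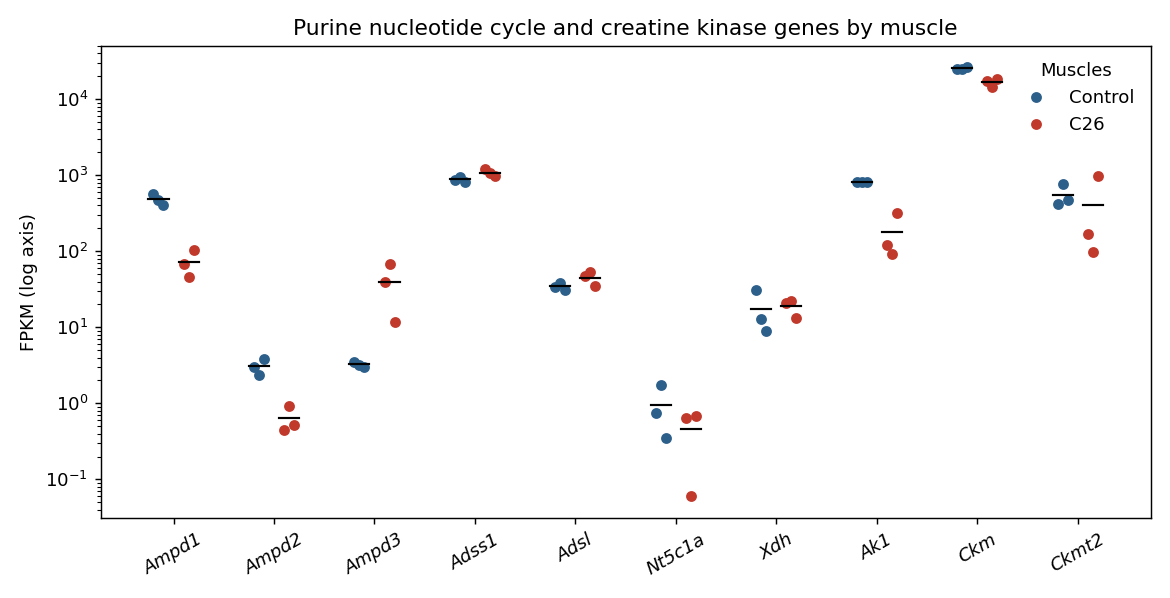
FPKM of each of the 10 genes (log axis) in the 3 control (blue) and 3 C26 (red) muscles, with a black line at the mean of each group. Control and C26 muscles lie apart for Ampd1, Ampd2, Ampd3, Adss1, Ak1 and Ckm, and they overlap for Adsl, Nt5c1a, Xdh and Ckmt2.

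Bases upstream of annotated starts of Ampd3, which rose, and Ak1, which fell, are shown because these genes moved apart within the same reaction chain. Promoter windows from RefSeq (GRCm38.p6) were found for 8 of the 10 genes, with 14 starts, and were missing for Ampd1 and Xdh. Each sequence covers the 250 bases before a start, from 5′ to 3′ on the strand of the gene. Capitals mark the letters CANNTG of the E-box, a general motif that the myogenic factors share with other factors. Shown are the start at the beginning of the annotated Ak1 gene and the pair of Ampd3 starts whose windows hold no annotated exon. The deposited values do not say which start was used. The windows lie at chr7:110772354-110772603 (start 2 of Ampd3), chr7:110773386-110773635 (start 3 of Ampd3) and chr2:32621508-32621757 (start 1 of Ak1), all on the plus strand.
Ampd3 start 2: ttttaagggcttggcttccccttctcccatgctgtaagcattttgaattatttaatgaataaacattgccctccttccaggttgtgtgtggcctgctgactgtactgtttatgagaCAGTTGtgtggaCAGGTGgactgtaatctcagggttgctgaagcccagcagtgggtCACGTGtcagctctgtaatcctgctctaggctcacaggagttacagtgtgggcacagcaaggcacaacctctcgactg
Ampd3 start 3: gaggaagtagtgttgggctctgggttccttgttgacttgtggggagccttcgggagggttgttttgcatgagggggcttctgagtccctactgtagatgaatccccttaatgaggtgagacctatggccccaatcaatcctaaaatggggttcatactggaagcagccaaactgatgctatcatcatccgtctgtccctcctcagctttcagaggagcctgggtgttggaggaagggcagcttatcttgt
Ak1 start 1: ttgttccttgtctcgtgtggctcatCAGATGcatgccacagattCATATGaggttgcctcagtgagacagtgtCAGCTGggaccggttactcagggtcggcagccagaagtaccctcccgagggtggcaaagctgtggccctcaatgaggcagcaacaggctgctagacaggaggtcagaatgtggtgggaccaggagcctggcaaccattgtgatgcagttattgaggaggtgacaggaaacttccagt

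Start 2 of Ampd3 and start 1 of Ak1 each held 3 E-box matches, and start 3 of Ampd3 held 0. Of the windows not shown, start 1 of Ampd3 held 1, and starts 2, 3 and 4 of Ak1 held 1, 2 and 1. At least 1 was found in 13 of the 14 windows of the 10 genes, and in 66.2% of all 32851 windows of the table. On both strands, the FOXO motif TGTTTAC and the MEF2 core TATTTATA were in 0 of the 14 windows, against 3.17% and 1.56% of all windows. The half-site of the glucocorticoid receptor, AGAACA, was in 1 (the single window of Adss1), the STAT motif TTCNNNGAA in 2 and the NF-kB core in 4. Of all windows 16.1%, 7.02% and 17.6% held them. The windows of a gene overlap or share its surroundings and are not independent, and a match describes these letters only.

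Ampd1 (Entrez gene ID 229665, chromosome 3, bases 103073897 to 103099720 of GRCm38.p6) is the deaminase of the muscle fiber. It had 566, 478 and 404 FPKM in control muscles and 68.1, 45.3 and 104 FPKM in C26 muscles. Every C26 muscle was far below every control, and C26 replicate 3 was the highest of its group. Ampd1 had a log2 fold change of -2.58 (SE 0.35, limma adjusted p = 0.00515), a 5.97-fold decrease. With each muscle left out in turn it lay between -2.83 and -2.25, and all 6 fits passed the test.

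Ampd3 (Entrez gene ID 11717, chromosome 7, bases 110767790 to 110812409) had 3.54, 3.23 and 2.98 FPKM in control muscles and 39.2, 68.7 and 11.7 FPKM in C26 muscles. The controls were close together, the C26 muscles were spread widely, and the groups did not overlap. Its log2 fold change of 3.27 (SE 0.56, limma adjusted p = 0.00887) was a 9.63-fold increase. The value lay between 2.75 and 4.01 with 1 muscle left out, and all 6 fits passed. Among all genes, Ampd3 moved from rank 8020 by mean FPKM in control muscles to rank 1674 in C26 muscles, where rank 1 is the most abundant gene.

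Since Ampd3 is the red cell isoform, red cell markers were read beside it. The 3 of 6 such markers that were listed all rose, against 19.4% of all genes. They summed to 278 to 434 TPM in control muscles and to 726, 628 and 1296 TPM in C26 replicates 1, 2 and 3. Hba-a1 made up nearly all of this sum, with 276 to 431 TPM in control and 716, 620 and 1279 TPM in C26 muscles. Hba-a1 passed in 2, Hbb-bs in 3 and Alas2 in all 6 fits with a muscle left out. The C26 muscle with the highest Ampd3, replicate 2, had the lowest red cell sum of its group, and replicate 3 had the lowest Ampd3 and the highest red cell sum. Macrophage and other leukocyte markers, 7 of 7 listed, summed to 79.0, 61.6 and 354 TPM in control replicates 1, 2 and 3 and to 152, 489 and 61.9 TPM in the C26 replicates. The C26 muscles stood in the same order for this sum and for Ampd3, which rested on Cd68, while control replicate 3 had the highest sum and the lowest Ampd3 of its group. Without Cd68 the C26 replicates had 90.4, 67.2 and 49.7 TPM, another order than that of Ampd3. None of these 7 markers passed the test of limma, and 2 of them, Cd68 upward and Csf1r downward, had an unadjusted p under 0.05. Cd68, a macrophage marker, had 4.75, 1.75 and 5.77 FPKM in control and 34.9, 247 and 6.46 FPKM in C26 muscles (log2 fold change 3.40, 95% interval 0.57 to 6.22, limma adjusted p = 0.0653). Of the other 6 markers 4 had log2 fold changes below 0, Csf1r with -0.78 (limma adjusted p = 0.0884) and Ptprc with -1.99 (limma adjusted p = 0.265) among them. Of 4 neutrophil markers 2 were listed and both rose, S100a8 by 1.92 (limma adjusted p = 0.00858) and S100a9 by 1.86 on the log2 scale (limma adjusted p = 0.00691), from 0.14 to 1.46 FPKM in controls to 2.85 to 3.96 FPKM in C26 muscles. The part of red cells, leukocytes and neutrophils in the rise of Ampd3 was not tested. The exons of Ampd3 overlap those of Rnf141 and B430319F04Rik on the other strand and of Gm47282 on its own strand, and whether the libraries kept the strand is not stated. Of its 50-base stretches 5.28% occur in transcripts of other genes, 149 of these 296 in Rnf141. Rnf141 had 5.41 to 7.88 FPKM in control and 5.90 to 6.89 FPKM in C26 muscles, with a log2 fold change of 0.10 (limma adjusted p = 0.703).

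Ampd2 (Entrez gene ID 109674, chromosome 3, bases 108074059 to 108086687) was a low gene in these muscles. Control muscles had 2.98, 2.38 and 3.86 FPKM and C26 muscles 0.45, 0.93 and 0.52 FPKM, without overlap. The log2 fold change was -1.43 (SE 0.19, limma adjusted p = 0.00512) and lay between -1.57 and -1.31 with 1 muscle left out. With a pseudocount of 0.1 in place of 1 it was -2.01. Exons of Gm12500 overlap Ampd2, and 7.19% of the 50-base stretches of its transcripts occur in transcripts of another gene.

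The makeup of the AMP deaminase transcripts changed with these levels. In control muscles Ampd1 made up 98.3% to 98.9% of the summed FPKM of the 3 genes and Ampd3 0.618% to 0.726%. In C26 replicates 1, 2 and 3, Ampd3 made up 36.4%, 59.7% and 10.1%. Ampd3 was therefore the larger transcript in C26 replicate 2 and the smaller in the other C26 muscles. The ratio of Ampd3 to Ampd1, which does not depend on the scaling of the libraries, rose by 6.09 on the log2 scale. A two-sided exact permutation test gave p = 0.1, the smallest that 3 muscles against 3 allow, and an adjusted p of 0.175 over the 7 ratios computed. None of the 7 ratios can pass the threshold at this size. The ratio of Ampd2 to Ampd1 differed by 0.48 on the log2 scale (exact permutation test, p = 0.6).

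The total of the AMP deaminase transcripts was lower in every C26 muscle. The 3 genes summed to 572, 483 and 411 FPKM in control muscles and to 108, 115 and 116 FPKM in C26 muscles. The C26 sums were close together, although the muscles differed in which gene supplied them. As a share of all FPKM the 3 genes took 0.0747% ± 0.0140 (SD, n = 3) in control and 0.0204% ± 0.00071 (SD, n = 3) in C26 muscles (two-sided exact permutation test, p = 0.1, the smallest possible). No stretch of 50 bases, the read length, is shared between the transcripts of the 3 genes in the GENCODE annotation, so no full read could match more than 1 of them there.

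**Figure D2:**
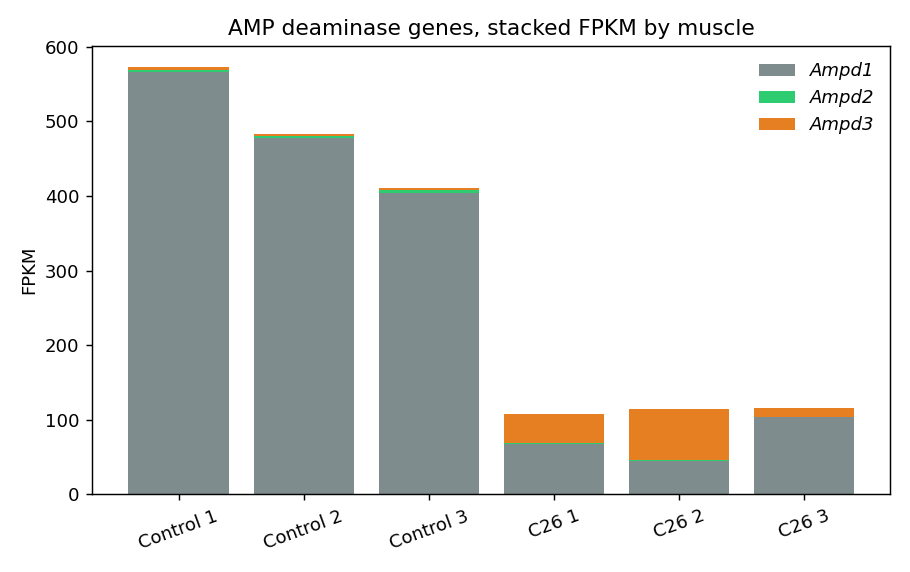
Stacked FPKM of Ampd1 (grey), Ampd2 (green, a thin line at most) and Ampd3 (orange) in each control and C26 muscle. The bars reach 411 to 572 FPKM in controls, almost all of it Ampd1, and 108 to 116 FPKM in C26 muscles, where Ampd3 takes a visible part.

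The pair of enzymes that return IMP to AMP did not follow Ampd1. Adss1 (Entrez gene ID 11565, chromosome 12, bases 112620047 to 112641355) encodes the muscle adenylosuccinate synthetase and was the second most abundant of the 10 genes. It had 875, 942 and 820 FPKM in control muscles and 1201, 1067 and 963 FPKM in C26 muscles, each C26 value above each control. The log2 fold change was 0.51 (SE 0.16, 95% interval 0.11 to 0.90), and the adjusted p of 0.0541 (limma) missed the threshold. It passed in 2 of the 6 fits with a muscle left out, those without C26 replicate 3 (limma adjusted p = 0.0372) and without control replicate 2 (limma adjusted p = 0.0455).

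Adsl (Entrez gene ID 11564, chromosome 15, bases 80948490 to 80970947), the lyase of the cycle and of purine synthesis, had 34.2, 38.6 and 30.9 FPKM in control muscles and 46.7, 53.6 and 34.8 FPKM in C26 muscles. On the deposited scale C26 replicate 3 was among the controls, while the scaled TPM of the groups did not overlap. The log2 fold change of 0.57 (SE 0.20, 95% interval 0.09 to 1.06) had an adjusted p of 0.0688 (limma), and of 0.0225 without C26 replicate 3. The ratio of Adsl to Adss1 differed by 0.08 on the log2 scale (exact permutation test, p = 0.9).

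The genes that lead out of the cycle did not pass the test. Nt5c1a (Entrez gene ID 230718, chromosome 4, bases 123201230 to 123225339) encodes a cytosolic nucleotidase that acts on AMP in muscle. It was the lowest of the 10 genes, with 0.75, 1.75 and 0.35 FPKM in control and 0.64, 0.06 and 0.69 FPKM in C26 muscles. Its log2 fold change was -0.41 (95% interval -1.44 to 0.63, limma adjusted p = 0.483), so that a change of up to 1.44 downward lay within its error.

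Xdh (Entrez gene ID 22436, chromosome 17, bases 73883895 to 73950397), the gene of xanthine dehydrogenase, had 31.2, 12.9 and 8.88 FPKM in control muscles and 20.8, 22.5 and 13.2 FPKM in C26 muscles. The C26 values fell between the highest and the lowest control, and the log2 fold change was 0.46 (95% interval -0.62 to 1.53, limma adjusted p = 0.453). Without control replicate 1 it was 0.93 and without control replicate 3 it was 0.04, and neither passed the test. Control replicates 1, 2 and 3 stood in the same order for Xdh and for the sum of the fat cell markers, and the C26 muscles did not. Of the 7 endothelial markers 2 fell, against 14.5% of all genes. They summed to 113, 91.9 and 89.9 TPM in control replicates 1, 2 and 3 and to 80.5, 82.1 and 77.8 TPM in the C26 replicates. This was the order of Xdh within each group. The part of fat cells and endothelium in the Xdh values was not tested. Of its 50-base stretches 9.6% occur in transcripts of other genes.

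Ak1 (Entrez gene ID 11636, chromosome 2, bases 32621758 to 32635058) encodes the cytosolic adenylate kinase of muscle, which makes the AMP that enters the cycle. It had 822, 808 and 809 FPKM in control muscles, the closest agreement between controls among the 10 genes, and 122, 90.8 and 321 FPKM in C26 muscles. Every C26 muscle was below every control, and C26 replicate 3 was well above the others of its group. Its log2 fold change was -2.19 (SE 0.48, limma adjusted p = 0.0170), a 4.57-fold decrease. Ak1 kept its direction with each muscle left out, at -2.68 to -1.79. It missed the threshold in 3 of these 6 fits, with a limma adjusted p of 0.0673 without C26 replicate 1, 0.0610 without control replicate 1 and 0.0504 without control replicate 2.

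Ckm (Entrez gene ID 12715, chromosome 7, bases 19411094 to 19421583), the cytosolic creatine kinase of muscle, was the fourth most abundant gene of all in both groups. It had 25167, 25124 and 26160 FPKM in control muscles and 17429, 14314 and 18555 FPKM in C26 muscles. All C26 values were below all control values, and they took 3.28%, 2.64% and 3.17% of the summed FPKM against 3.85%, 4.01% and 3.80% in the controls (two-sided exact permutation test of the share, p = 0.1, the smallest possible). The log2 fold change after scaling was -0.40 (SE 0.17, 95% interval -0.81 to 0.02) with an adjusted p of 0.119 (limma). A gene at this level shares in setting the scale itself. Used as deposited, FPKM gave -0.61 (limma adjusted p = 0.0212), scaling without the 20 most abundant genes gave -0.70 (limma adjusted p = 0.0279), and quantile normalization gave 0.04. Of the 50-base stretches of Ckm transcripts 10.8% also occur in A930016O22Rik, an overlapping antisense gene.

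Ak1 was also lower relative to Ckm in every C26 muscle. The ratio of Ak1 to Ckm was 3.09% to 3.27% in control muscles and 0.699%, 0.634% and 1.73% in C26 muscles, a log2 difference of -1.80 (two-sided exact permutation test, p = 0.1, the smallest possible, adjusted p = 0.175 over 7 ratios). With 1 muscle left out this difference lay between -2.26 and -1.54.

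Ckmt2 (Entrez gene ID 76722, chromosome 13, bases 91853386 to 91876923) encodes the sarcomeric mitochondrial creatine kinase. It had 423, 773 and 476 FPKM in control muscles and 167, 97.3 and 964 FPKM in C26 muscles. C26 replicates 1 and 2 were below all controls, and C26 replicate 3 was above all controls. Over all 6 muscles its log2 fold change was -0.89 (SE 0.86, 95% interval -2.95 to 1.18, limma adjusted p = 0.446), and -1.81 (limma adjusted p = 0.0198) without C26 replicate 3. The 6 slow fiber markers summed to 696, 234 and 396 TPM in control replicates 1, 2 and 3 and to 238, 56.9 and 665 TPM in the C26 replicates. Among C26 muscles they stood in the same order as Ckmt2, and among controls the muscle with the highest Ckmt2, replicate 2, had the lowest slow fiber sum. Myh1, a fast fiber myosin among the muscle fiber markers, had 92.8, 331 and 118 FPKM in control and 299, 254 and 2555 FPKM in C26 muscles (limma adjusted p = 0.143). It stood in the same order as Ckmt2 within each group, with C26 replicate 3 above all controls for both genes. No other of the muscle fiber markers stood in that order in both groups or had C26 replicate 3 above all controls. Myh4 had 8812, 10809 and 8672 FPKM in control and 10905, 8824 and 8751 FPKM in C26 muscles. The part of fiber types in the Ckmt2 values was not tested. Ckmt2 made 1.68%, 3.08% and 1.82% of the Ckm value in control muscles and 0.956%, 0.680% and 5.20% in C26 muscles, which overlap (log2 difference -0.49, two-sided exact permutation test, p = 0.6).

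**Figure D3:**
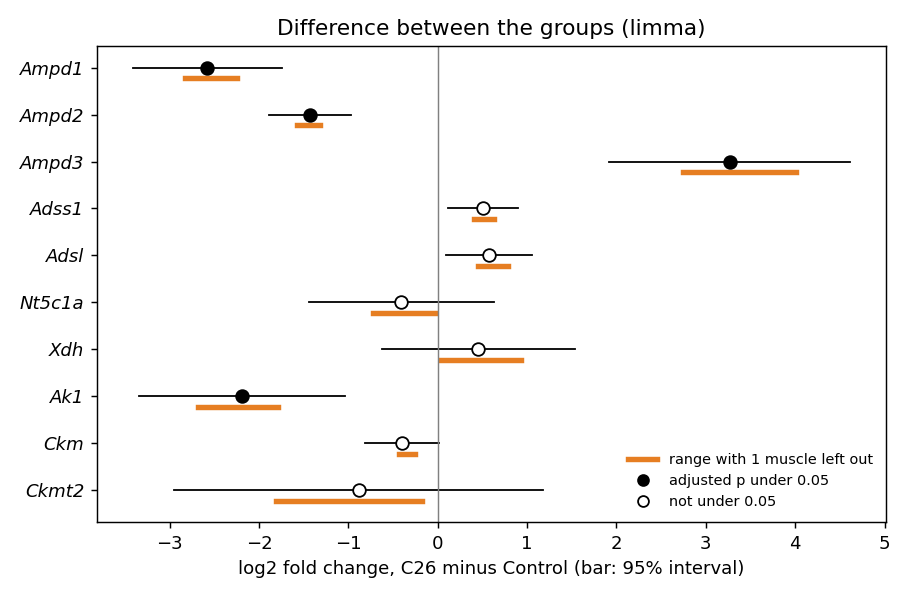
Log2 fold change of each gene, C26 minus control (circle, filled where the adjusted p of limma was under 0.05), with its 95% interval (black bar) and the range over the 6 fits that left out 1 muscle (orange bar). Ampd3 lies at 3.27, Ampd1 at -2.58, Ak1 at -2.19 and Ampd2 at -1.43, and the interval of Ckmt2 runs from -2.95 to 1.18.

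C26 replicate 3 stood nearest to the controls for several of the 10 genes. It had the highest Ampd1, Ak1 and Ckm and the lowest Ampd3, Adss1 and Adsl of its group. For Xdh it was the lowest of its group, and all C26 muscles lay within the control range. For Ckmt2 it was the highest of its group and above all controls. Without it, the genes that passed the test were 3 higher (Ampd3, Adss1 and Adsl) and 4 lower (Ampd1, Ampd2, Ak1 and Ckmt2), and among all genes the shares then were 24.8% higher and 16.2% lower. Ampd1, Ampd2, Ampd3 and Ak1 passed with all muscles and with this muscle left out. The muscle was singled out by the values of the 10 genes, so their passing without it is no further support. Ak1 passed in 3 of the 6 fits with a muscle left out.

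Of the other genes of these pathways, 53 were taken in 6 lists and 47 of them were in the table. In C26 muscles 8 rose and 6 fell, with a median log2 fold change of 0.02. Over all genes, 19.4% rose and 14.5% fell.

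Genes of creatine synthesis and Ckb were lower in C26 muscles, and Ckmt1 was not analysed here. Of 4 listed genes of the creatine system 3 fell and 0 rose, against 14.5% and 19.4% of all genes. The median log2 fold change of the 4 was -1.59. Gamt, which makes the last step of creatine synthesis, had 35.6, 23.9 and 34.5 FPKM in control muscles and 2.38, 0.56 and 2.57 FPKM in C26 muscles. No C26 muscle came near a control, and the log2 fold change was -3.63 (SE 0.42, limma adjusted p = 0.00355). Gatm, which makes the first step, fell from 2.23 ± 0.96 (SD, n = 3) to 0.697 ± 0.059 FPKM (SD, n = 3) (log2 fold change -0.93, limma adjusted p = 0.0231). Ckb, the brain form of creatine kinase, had 8.45, 6.57 and 8.11 FPKM in control and 0.93, 0.45 and 1.67 FPKM in C26 muscles, and fell by 2.25 on the log2 scale (limma adjusted p = 0.00518). Gamt and Ckb passed in all 6 fits with a muscle left out and Gatm in 4, not in those without C26 replicate 1 or 2. The creatine transporter gene Slc6a8 had 15.9 to 29.7 FPKM in control and 19.95 to 33.3 FPKM in C26 muscles (log2 fold change 0.32, limma adjusted p = 0.487). The ratio of Ckb to Ckm differed by -2.50 on the log2 scale (two-sided exact permutation test, p = 0.1, the smallest possible, adjusted p = 0.175 over 7 ratios). With 1 FPKM added to both values, which weighs on the low Ckb, it was -1.54.

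AMP-activated kinase, the sensor of a rising AMP level, was represented by its 7 subunit genes. Of these, 2 rose and 1 fell, against 19.4% and 14.5% of all genes. Prkag3, the regulatory subunit typical of fast muscle, had 86.6, 83.6 and 86.8 FPKM in control muscles and 8.72, 10.6 and 7.96 FPKM in C26 muscles. Both groups were tight and far apart, and the log2 fold change was -2.96 (SE 0.14, limma adjusted p = 0.000822). The other regulatory subunits did not pass, with log2 fold changes of 0.48 for Prkag1 and -0.40 for Prkag2. The catalytic subunit gene Prkaa2 rose from 14.2 ± 3.67 to 28.2 ± 7.86 FPKM (log2 fold change 1.16, limma adjusted p = 0.0258), and Prkab1 rose as well (log2 fold change 0.73, limma adjusted p = 0.0397). Prkaa2 passed in 3 and Prkab1 in 2 of the 6 fits with a muscle left out. All those in which Prkaa2 failed, without C26 replicate 1, C26 replicate 2 or control replicate 1, were among those in which Prkab1 failed.

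Among the 8 genes that interconvert AMP, IMP and GMP, 2 rose and 0 fell, against 19.4% and 14.5% of all genes. Impdh2, which encodes an enzyme of the first step from IMP to GMP, rose from 32.4 ± 3.84 to 89.4 ± 40.1 FPKM, with 44.4 FPKM in C26 replicate 3 (log2 fold change 1.55, limma adjusted p = 0.0174). It passed in 3 of the 6 fits with a muscle left out, not in those without C26 replicate 1, C26 replicate 2 or control replicate 1. Impdh1, its paralog in that step, had 7.14 to 8.52 FPKM in control and 6.10 to 10.6 FPKM in C26 muscles, which overlap (log2 fold change 0.30, limma adjusted p = 0.246). Gmps, the gene of the next step, rose from 4.05 ± 0.22 to 9.91 ± 2.77 FPKM (log2 fold change 1.33, limma adjusted p = 0.00723) and passed in all 6 such fits. The non-muscle synthetase gene Adss2 had 10.4, 7.50 and 12.3 FPKM in control and 6.20, 6.31 and 6.21 FPKM in C26 muscles (log2 fold change -0.41, limma adjusted p = 0.0860). The ratio of Adss2 to Adss1 was lower in every C26 muscle, by 0.95 on average on the log2 scale (two-sided exact permutation test, p = 0.1, the smallest possible).

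Of the 9 genes of purine synthesis from simple precursors, 2 rose and 0 fell, against 19.4% and 14.5% of all genes. The median log2 fold change of the 9 was 0.40. Gart rose from 14.0 ± 1.83 to 29.5 ± 8.33 FPKM (log2 fold change 1.22, limma adjusted p = 0.0119), and Paics had a log2 fold change of 0.60 (limma adjusted p = 0.0328). Gart lost significance without C26 replicate 1 or control replicate 1, and Paics in 4 of the 6 fits with a muscle left out, which were these as well as those without C26 replicate 2 or control replicate 3.

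Of the 14 listed nucleotidase, salvage and breakdown genes, 2 rose and 1 fell, against 19.4% and 14.5% of all genes. Nt5c3, a cytosolic nucleotidase known for pyrimidine nucleotides, rose from 25.5 ± 1.53 to 69.4 ± 18.0 FPKM (log2 fold change 1.60, limma adjusted p = 0.00447). Gda, the guanine deaminase gene, rose by 1.29 on the log2 scale (limma adjusted p = 0.0217) and Nt5c3b fell by 0.73 (limma adjusted p = 0.0325). Nt5c3 passed in all 6 fits with a muscle left out, Gda in 2 and Nt5c3b in 0. Gda passed without C26 replicate 3 and without control replicate 1.

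**Figure D4:**
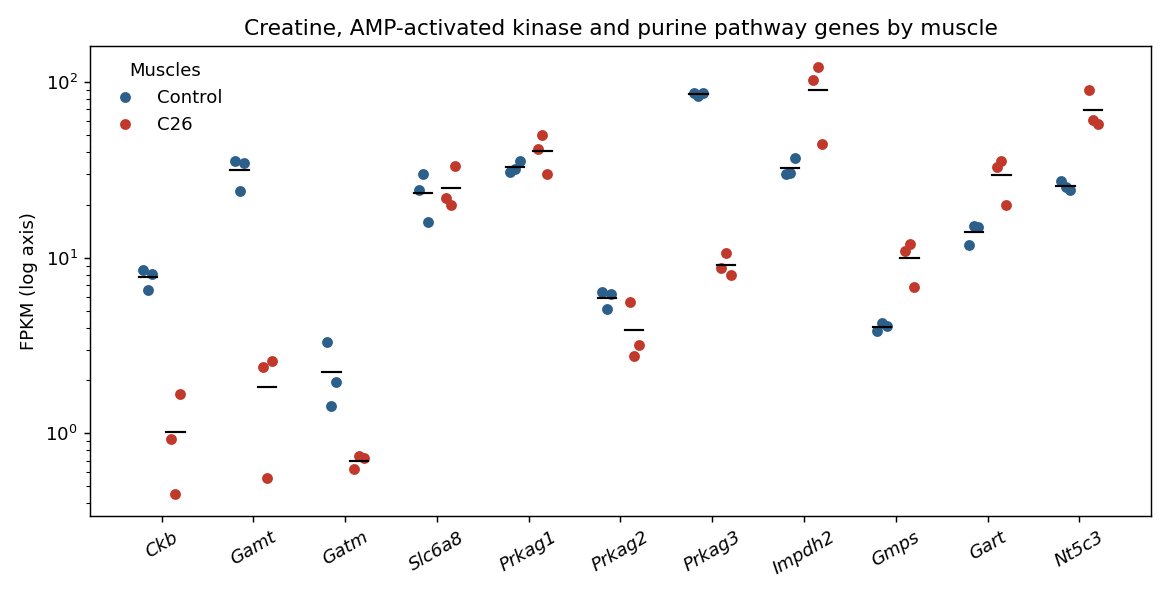
FPKM (log axis) of 11 other genes of these pathways in the 3 control (blue) and 3 C26 (red) muscles, with a black line at the mean of each group. Prkag3 drops from 83.6 to 86.8 FPKM to 7.96 to 10.6 FPKM, and Gamt, Ckb and Gatm are also lower in every C26 muscle, while Slc6a8 overlaps between the groups.

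The genes whose log2 values ran closest to those of Ampd3 and Ampd1 were sought over the 6 muscles by Euclidean distance after centring. For Ampd3 they were Mfsd4b1 (distance 0.256), Doc2b (0.709) and Mknk2 (0.777). For Ampd1 they were Col6a1 (0.333), Chrne (0.364) and Pgm1 (0.405). These 6 muscles fall into the groups compared, so that any gene with a like difference between the groups comes close.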

How the data were processed

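Gastrocnemius muscles of 3 C26 and 3 control mice were compared, grouped by their sample labels. The authors filtered reads of 50 bases, aligned them to GRCm38.p5 with bowtie2 and estimated FPKM by RSEM, and deposited FPKM to 2 decimals, all above 0. The submitters' processing notes list Bowtie2 2.2.5, HISAT2 2.0.4, RSEM 1.2.12 and the build mm9, without roles. The extraction text of the labels names other cells and another kit than the paper. A symbol was found for 13327 Entrez gene IDs and not for 36.

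FPKM were rescaled to 1000000 per muscle (TPM), divided by TMM factors (0.903 to 1.08, unweighted, trims of 30% and 5%) and log2-transformed after adding 1. Groups were compared with limma 3.58.1 (R 4.3.3). The same fit was also run on simulated data with known changes, and its outcome there is not given here. Ratios and shares were compared by exact permutation tests (scipy 1.17.1). Sequences came from RefSeq, and overlapping exons and 50-base stretches from GENCODE transcripts of GRCm38. Figures used matplotlib 3.10.9.

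The members, lists and tests were chosen with earlier results of these data known. Named were all members and, of each list, up to 3 genes with the largest change among those that passed. Some results are not reported here. Alternatives were quantile normalization, no TMM, deposited FPKM with no rescaling, a pseudocount of 0.1, only genes averaging 1 TPM or more, scaling without the 20 most abundant genes, an intensity trend, the replicate number as a block, and each muscle left out.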

Additional observations from a re-analysis of the deposited data

How the results depend on the processing

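Ampd1, Ampd2, Ampd3 and Ak1 kept their direction and passed the test under all 8 alternatives with all muscles, and Ampd1, Ampd2 and Ampd3 also with each muscle left out. Over the 10 genes, 77 of 80 pairs of a gene and an alternative kept direction and side of the threshold, and 53 of 60 with a muscle left out. The exceptions with all muscles were those of Ckm, which passed with FPKM as deposited (-0.61) and without the 20 most abundant genes (-0.70) and turned to 0.0442 with quantile normalization. FPKM as deposited gave 1678 genes higher and 2504 lower among all, 5 higher and 9 lower among the other pathway genes, and 1 higher and 4 lower among the 10 genes. Scaling without the 20 most abundant genes gave 1520 higher and 3356 lower among all genes, against 2590 and 1931, and 5 higher and 10 lower among the other pathway genes. It moved the median of all genes by -0.221 on the log2 scale, to -0.268.

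With each muscle left out, the 10 genes gave 1 to 3 higher and 2 to 4 lower, all genes 1131 to 3311 higher and 669 to 2160 lower, and the other pathway genes 2 to 13 higher and 4 to 7 lower. Among all genes these were 1131 higher and 669 lower without C26 replicate 1, 1528 and 946 without C26 replicate 2, and 1152 and 724 without control replicate 1. Among the other pathway genes 2, 3 and 3 were then higher, and 13 without C26 replicate 3. Log2 differences of ratios then ran from -0.13 to 0.88 for Ampd2 to Ampd1, from -1.39 to 0.0789 for Ckmt2 to Ckm and from -0.0661 to 0.17 for Adsl to Adss1, and each turned its sign without C26 replicate 2. Adding 1 FPKM to both values moved the first of these ratios to 1.47 and that of Ckb to Ckm to -1.54. The differences in share, -0.85 percentage points for Ckm, -0.95 for the 10 genes, -0.096 for those other than Ckm and -0.054 for the AMP deaminase genes, became -2.45, -2.71, -0.27 and -0.10 when the 20 most abundant other genes were left out of the sum, by construction of the smaller sum. The cause of the other shifts was not tested.

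Same-numbered muscles did not deviate together (correlations of -0.039, -0.084 and -0.112 across 13363 genes), and the labels give no pairing. The replicate block gave 1236 genes lower and 1844 higher among all genes and changed no call among the 10 genes. Depth is unknown, and the low values of Ampd2 and Nt5c1a rest on the spread of 3 muscles.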
